A study of Rattus norvegicus with 24 samples.

Results

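Solute carriers are the largest group of membrane transport proteins that are not channels or pumps, and their genes carry the symbol prefix Slc followed by a family number. Every gene with such a symbol as the only symbol of a probe set was taken, apart from 2 that are not analysed here, which gave 118 solute carrier genes of 4736 named genes. Membership was set by the symbol. Of the 118 genes, 43 had more than 1 probe set (several short probes read together as 1 transcript signal), and each gene was read through the probe set with the highest mean over all arrays. All 118 were found in the RefSeq gene table under the same symbol.

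The transcripts were measured in rat (Rattus norvegicus) extraocular muscle (EOM), the small muscles that turn the eye, and in extensor digitorum longus (EDL), a fast hindlimb muscle that extends the toes. Each muscle was taken at 6, 18 and 30 months of age, with 4 arrays in each of the 6 groups and 24 in all, and each array held RNA pooled from 4 animals. The labels name no treatment, and strain and sex were not given in the sources used here. The design text calls the replicates of a group independent, so a p-value measures the spread between pools, and it does not say whether 1 set of animals gave both muscles.

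Some solute carriers sit in the plasma membrane and bring fuel into the muscle fibre or let its waste out: glucose enters through the Slc2 family, lactate passes with a proton through the Slc16 family and fatty acids are taken up with the help of the Slc27 family. Others are in inner membranes, such as the Slc25 family of the mitochondrion, which exchanges ADP, ATP, phosphate and metabolites with the cytosol. A further set moves ions, and with them sets cell pH, volume and calcium. Fast limb fibres are known for glycolysis and lactate export, and eye muscles for constant activity, many mitochondria and an unusual mix of fibre types.

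A transcript counted as above array background in a group when at least 3 of the 4 arrays exceeded their own 40th percentile, which lay between 53.8 and 83.8 units of signal. By this measure 60 solute carrier genes were above background in all 6 groups, 27 in 1 to 5 groups and 31 in none. The number above background was 74, 77 and 69 in EDL and 72, 70 and 72 in EOM at 6, 18 and 30 months. Slc7a1, which carries arginine and lysine, was above background in all 3 EDL groups and in no EOM group, and Slc22a3, an organic cation transporter, was above it in all 3 EOM groups and in no EDL group. The 31 genes never above background included many known from kidney, gut, liver or nerve cells: Slc10a1, Slc12a1, Slc12a5, Slc13a1, Slc13a3, Slc15a1, Slc16a12, Slc17a1, Slc17a7, Slc18a1, Slc1a6, Slc22a2, Slc22a25, Slc22a6, Slc24a2, Slc2a2, Slc30a1, Slc35f6, Slc40a1, Slc41a2, Slc44a4, Slc52a3, Slc5a2, Slc5a5, Slc6a13, Slc6a17, Slc6a18, Slc7a2, Slc7a3, Slc9a3 and Slc9a4. They were not tested through these probe sets, and the other 87 were.

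Median signal was between 89.7 and 136.8 units per array, and precision is limited by having 4 arrays in a group. The array of EDL replicate 1 at 30 months was least like its own group (median Spearman correlation 0.873, with 0.915 to 0.962 for the other 23 arrays). Replicates 1 and 2 of EDL at 6 months had beta-actin 3′ to 5′ ratios, a sign of RNA quality, of 2.54 and 3.54 against 1.13 to 2.12 on the other 22. Replicates 2 and 3 of EDL at 6 months also stood apart in slow-fibre transcripts: the summed signal of Tnni1, Myl3, Myl2, Myh7 and Atp2a2, genes chosen after values were seen, was 107613 and 102265 units there and 17267 to 56306 on the other 22 arrays. Calls of named genes in the mean over ages, at 6 months and with age that these 2 arrays changed are given with and without them.

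The labelled tissues matched their defining markers. Of 4 extraocular fibre genes, all 4 were higher in EOM, with a summed signal of 56649 to 90744 units on EOM arrays and 1421 to 6464 on EDL arrays, and all 7 fast and general muscle fibre genes were lower in EOM.

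EOM and EDL differed in 38 of the 87 tested solute carrier genes as a mean over the 3 ages (limma, Benjamini-Hochberg adjusted p under 0.05 over all 5741 probe sets tested). In EOM, 20 were higher and 18 lower. The largest rises were in the glucose transporter Slc2a1, the potassium-chloride cotransporter Slc12a7, the mitochondrial citrate carrier Slc25a1 and the ADP/ATP carrier Slc25a5, all above 3-fold. The largest fall was in the lactate transporter Slc16a3, by 1.82 on the log2 scale. The share called, 43.7% of tested solute carrier genes, was close to the background: 42.3% of all probe sets were called, 22.3% higher and 20% lower, and 43.3% of 3415 genes taken by their brightest probe set. The median log2 difference was -0.09 over the solute carrier genes and -0.07 over all probe sets. Of the 38, 9 were higher and 6 lower by at least 2-fold, and all 38 had the same sign at each of the 3 ages. With arrays centred on their medians, which moves the median of all probe sets to -0.11, 42 genes were called, 18 higher and 24 lower.

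**Figure D1:**
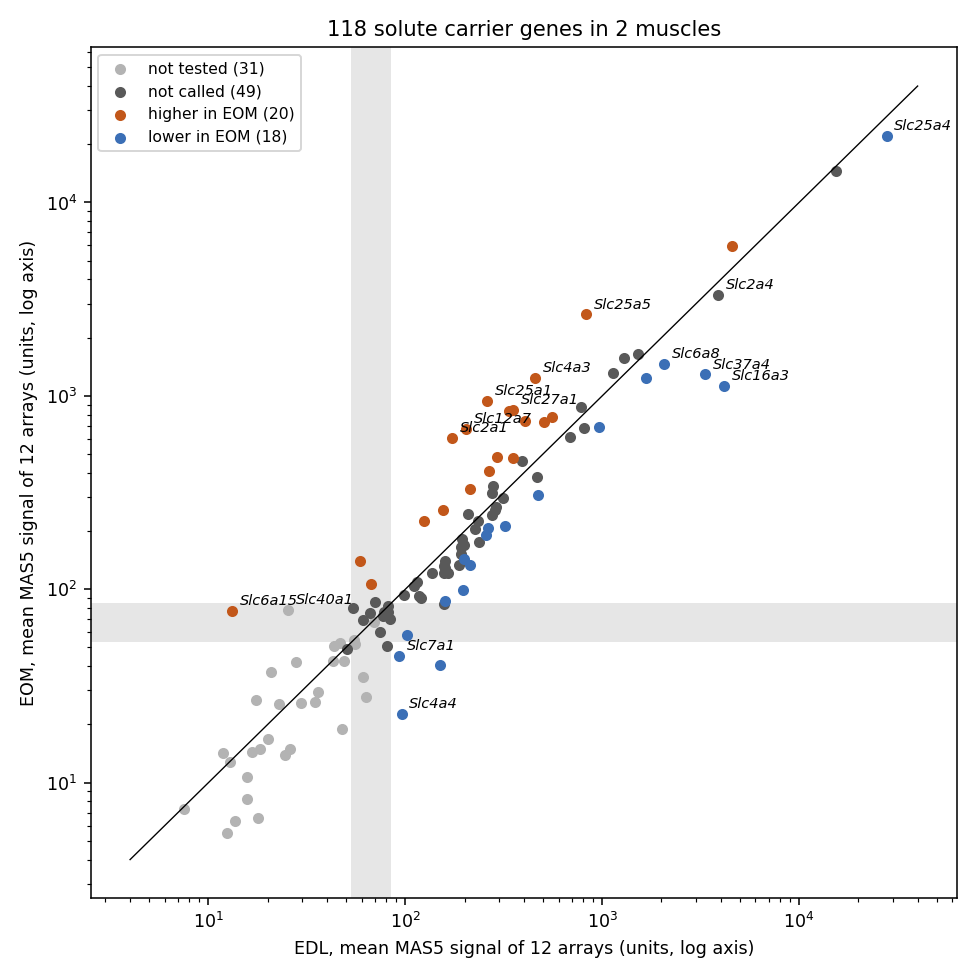
Mean MAS5 signal of each of the 118 solute carrier genes over the 12 EDL arrays (horizontal, log axis) and the 12 EOM arrays (vertical, log axis). Each point is a gene, the line marks equal signal, the grey bands span the 40th percentiles of the 24 arrays, and colours separate the 20 genes higher in EOM, the 18 lower, the 49 not called and the 31 not tested. The called genes lie on both sides of the line, from near the background bands to the brightest transcripts.

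In 5 genes, every one of the 12 EOM arrays exceeded every EDL array: Slc12a7, Slc20a2, Slc25a5, Slc27a1 and Slc2a1 (the same held for 4.95% of all probe sets). In Slc16a3 and Slc7a1, every EOM array lay below every EDL array, against 1.97% of all probe sets. The 38 called genes held a further 10 tested probe sets, in 8 genes. All 10 had the sign of the brightest probe set, 5 were called in the same direction and none in the opposite one.

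**Figure D2:**
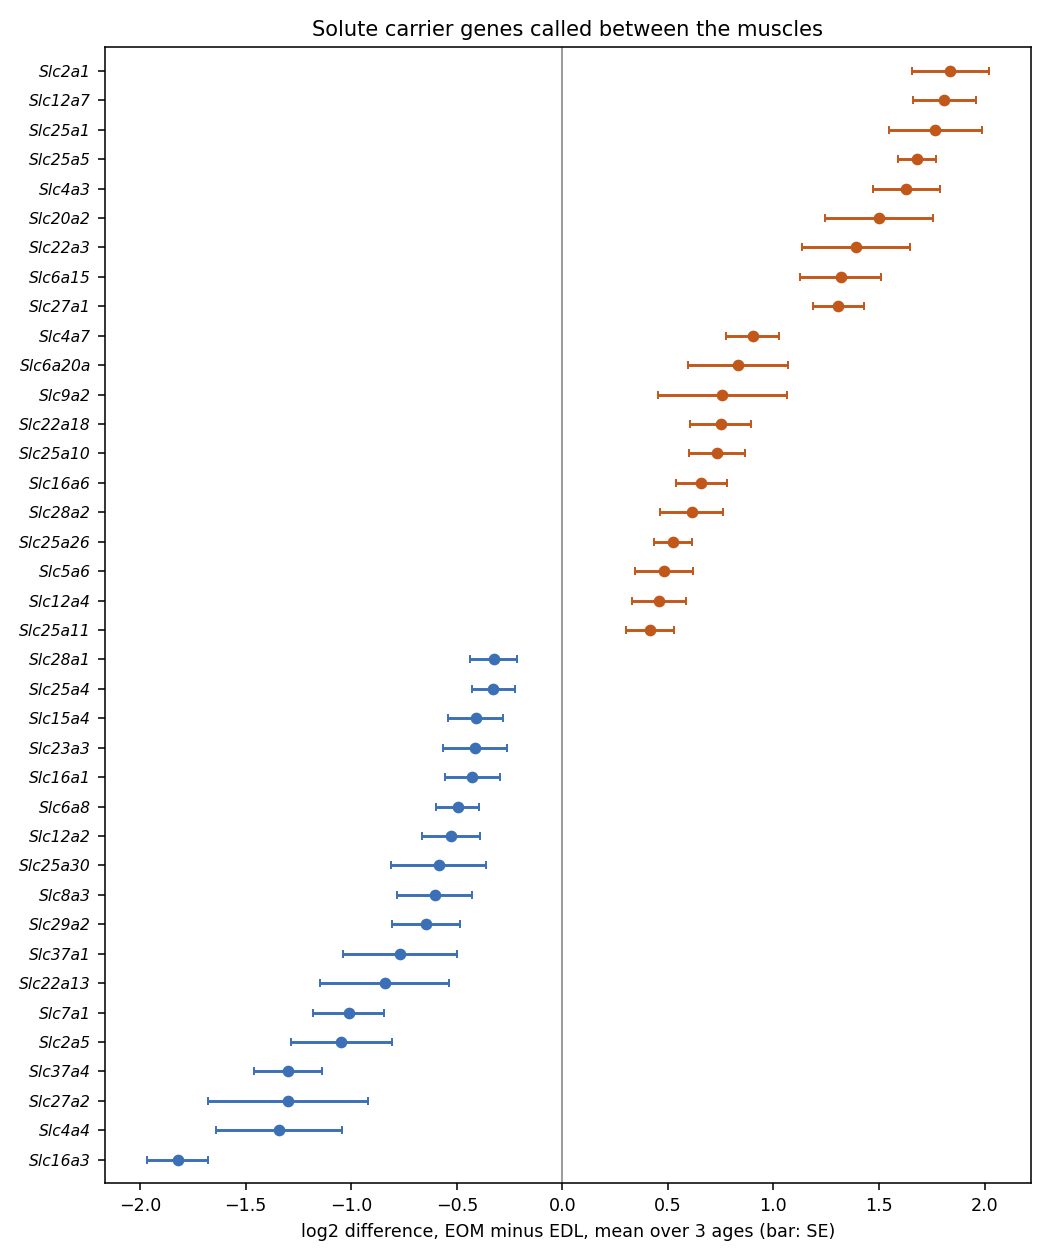
Log2 difference between the muscles (EOM minus EDL, mean over 3 ages; bars are the standard error) for the 38 solute carrier genes called. The 20 genes higher in EOM are to the right of the line, led by Slc2a1 at 1.84, and the 18 lower are to the left, led by Slc16a3 at -1.82.

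The start regions of 4 genes that were called at all 3 ages are shown because they belong to the clearest differences in either direction: Slc25a5 and Slc2a1, higher in EOM, and Slc16a3 and Slc37a4, lower. Each sequence runs from 250 bases before to 50 bases after the RefSeq gene start in assembly GRCr8, on the plus strand, at chrX:120897366-120897665 for Slc25a5, chr5:138002272-138002571 for Slc2a1, chr10:106712078-106712377 for Slc16a3 and chr8:53619775-53620074 for Slc37a4. Capitals mark GGGCGG, the core of the GC box bound by Sp1 and related factors, found on either strand (it then reads CCGCCC).
Slc25a5: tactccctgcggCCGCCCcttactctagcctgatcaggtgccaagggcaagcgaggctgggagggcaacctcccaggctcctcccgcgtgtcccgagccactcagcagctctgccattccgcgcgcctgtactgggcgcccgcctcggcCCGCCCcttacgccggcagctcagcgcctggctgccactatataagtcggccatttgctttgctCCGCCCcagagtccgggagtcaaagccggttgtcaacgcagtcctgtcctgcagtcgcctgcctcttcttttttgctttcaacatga
Slc2a1: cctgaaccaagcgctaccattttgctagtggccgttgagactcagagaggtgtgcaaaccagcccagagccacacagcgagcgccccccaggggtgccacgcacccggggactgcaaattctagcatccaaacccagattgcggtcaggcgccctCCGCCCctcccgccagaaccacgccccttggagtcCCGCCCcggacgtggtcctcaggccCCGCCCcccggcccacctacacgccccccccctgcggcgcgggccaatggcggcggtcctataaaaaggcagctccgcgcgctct
Slc16a3: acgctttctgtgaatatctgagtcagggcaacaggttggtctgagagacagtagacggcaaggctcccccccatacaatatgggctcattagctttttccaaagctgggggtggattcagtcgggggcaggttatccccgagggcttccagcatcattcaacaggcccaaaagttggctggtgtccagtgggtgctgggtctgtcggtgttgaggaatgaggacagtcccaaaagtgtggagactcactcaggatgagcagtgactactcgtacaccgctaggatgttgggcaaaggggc
Slc37a4: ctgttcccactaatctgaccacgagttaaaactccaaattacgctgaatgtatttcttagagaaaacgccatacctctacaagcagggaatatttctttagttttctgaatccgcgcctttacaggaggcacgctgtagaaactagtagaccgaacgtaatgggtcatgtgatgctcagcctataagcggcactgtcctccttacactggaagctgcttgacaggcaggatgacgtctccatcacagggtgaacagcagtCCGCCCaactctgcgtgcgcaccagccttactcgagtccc

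The GC box letters occurred 3 times in the window of Slc25a5, 3 times in that of Slc2a1, 1 time in that of Slc37a4 and not in that of Slc16a3. Promoters were in the table for 99 solute carrier genes, and 53 of them (53.5%) held GGGCGG on either strand, against 33.1% of 33469 promoters of the same length. That reference is not limited to genes on the array, and no share was computed for the other array genes. It was present in 10 of 15 promoters of genes higher in EOM and in 10 of 17 of genes lower in EOM, so its presence did not separate the directions. TATAAA was in 10.1% of the 99 and 14.2% of all, and the E-box CAGCTG in 11.1% and 15.1%, both searched on both strands, and none of the 3 motifs contains another. A match or its absence describes letters in this window only.

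Beside the counts by class that follow, 22.3% of all probe sets were called higher in EOM and 20% lower. Whether any class departs from these shares was not tested. Sugar carriers were split between the muscles: of 12 on the array and 9 tested, 2 were higher in EOM, 3 lower and 4 not called, with a median log2 difference of -0.16. Slc2a1, the basal glucose transporter that also marks blood-tissue barriers and erythrocytes, read 143.9, 222.5, 180.2 and 130.9 units in EDL at 6 months, 215.8, 178.5, 133.8 and 225.7 at 18 and 64.5, 185.2, 207.9 and 194.7 at 30. The EOM arrays gave 523.9, 764.8, 769.4 and 626.0 units of Slc2a1 at 6 months, 517.9, 543.7, 531.2 and 500.4 at 18 and 602.3, 907.0, 675.8 and 346.5 at 30. The groups did not overlap at any age, and EOM held 3.57-fold more of the transcript (limma log2 1.84, SE 0.18, adjusted p = 1.23e-08). A dimmer Slc2a1 probe set gave log2 2.18.

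Slc2a4, the insulin-responsive glucose transporter of muscle and fat, was bright in both muscles and was not called. It ranged from 2259 to 5911 units on EDL arrays and from 2306 to 4407 on EOM arrays, which overlap throughout, and the log2 difference was -0.16 (SE 0.16, adjusted p = 0.466 by limma). Slc2a3, the high-affinity glucose transporter of nerve cells, was at -0.34 (adjusted p = 0.0767). Slc2a3 passed under quantile normalisation, median centring, array weights and the replicate block (adjusted p of 0.0142 to 0.0267) and without replicate 2 of EDL at 18 or 30 months or replicate 3 of EOM at 18 months (adjusted p up to 0.048).

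Slc37a4, which brings glucose-6-phosphate into the endoplasmic reticulum, read 3940, 2726, 1478 and 5360 units in EDL at 6 months, 3284, 3744, 2600 and 5520 at 18 and 2970, 2194, 2610 and 3533 at 30. In EOM, Slc37a4 read 1415, 1166, 1119 and 1512 units at 6 months, 1562, 1555, 1061 and 1544 at 18 and 1155, 1007, 1058 and 1325 at 30. The lowest EDL array, replicate 3 at 6 months with its high slow-fibre transcripts, fell inside the EOM range, and no other EDL array did. The difference was 2.46-fold (log2 -1.30, SE 0.16, adjusted p = 4.25e-07), and a dimmer probe set of the gene gave -1.26.

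The fructose transporter Slc2a5 was also lower in EOM (log2 -1.05, SE 0.24, adjusted p = 0.00102), with 64.9 to 230.6 units on EDL arrays and 31.4 to 219.0 on EOM arrays. Slc37a1, a related sugar-phosphate carrier, was at -0.77 (adjusted p = 0.0243) and lost its call without the 2 arrays with high slow-fibre transcripts (adjusted p = 0.0618). Slc5a6, a vitamin carrier that its family number places among the sugar carriers, was higher by 0.48 (adjusted p = 0.00634).

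Carriers of lactate, other carboxylates and fatty acids were called in both directions and held the gene with the largest fall, Slc16a3. Of 13 on the array and 9 tested, 2 were higher in EOM, 3 lower and 4 not called. Slc16a3 encodes MCT4, the proton-lactate carrier that exports lactate from glycolytic fibres. It read 5009, 4280, 1557 and 5866 units in EDL at 6 months, 4900, 5287, 4212 and 5491 at 18 and 3412, 3272, 3551 and 3006 at 30. EOM arrays read 1369, 975, 951 and 1027 units of Slc16a3 at 6 months, 1279, 1182, 1237 and 1147 at 18 and 1232, 1005, 976 and 1080 at 30. The difference was 3.54-fold (log2 -1.82, SE 0.15, adjusted p = 3.54e-10) and was called at each age.

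The other main lactate carrier, Slc16a1 (MCT1), which oxidative fibres use for uptake, was lower in EOM by a smaller amount. It lay between 1090 and 2180 units on EDL arrays and between 860 and 1772 on EOM arrays, which overlap, with a log2 difference of -0.43 (SE 0.13, adjusted p = 0.0113), and a dimmer probe set gave -0.63. Slc16a6, a further member of the family, was higher in EOM (log2 0.66, SE 0.12, adjusted p = 1.21e-04). Slc16a7 (MCT2) was at 0.78 and not called (adjusted p = 0.0584), and it passed without replicate 3 of EDL at 6 months (adjusted p = 0.00316) and without the 2 arrays with high slow-fibre transcripts (log2 1.12, adjusted p = 0.00232). It also passed without replicate 1 of EDL at 18 months, replicate 4 of EOM at 6 or 18 months or replicate 1 of EOM at 30 months (adjusted p up to 0.0485). Quantile normalisation, median centring, array weights and the replicate block passed it too (adjusted p of 0.0278 to 0.0482). Slc16a7 was above background in 1 group only, EOM at 6 months, and was tested only through that group. Its difference therefore describes a signal near the detection limit.

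Fatty acid carriers moved in opposite directions. Slc27a1, the fatty acid transport protein of muscle and fat, read 339.8, 423.2, 549.9 and 314.9 units in EDL at 6 months, 333.2, 368.0, 348.4 and 333.4 at 18 and 163.9, 374.3, 375.9 and 292.4 at 30. EOM gave 681.1, 864.0, 742.3 and 755.0 units at 6 months, 908.5, 811.6, 924.3 and 924.3 at 18 and 942.2, 866.1, 875.9 and 847.9 at 30. All EOM arrays were above all EDL arrays, by 2.47-fold (log2 1.31, SE 0.12, adjusted p = 4.74e-09). Slc27a2, an acyl-CoA synthetase best known from liver and kidney, was lower in EOM (log2 -1.30, SE 0.38, adjusted p = 0.00774), with EDL arrays spread from 31.6 to 724.7 units and EOM arrays from 20.3 to 77.0. Its highest value was again replicate 3 of EDL at 6 months. It was above background in 1 group only, EDL at 6 months, through replicates 2, 3 and 4 (123.6, 724.7 and 174.4 units). Slc27a2 was tested only through that group, where its mean was highest, and most values of the other groups sat near the detection limit. Without the 2 arrays with high slow-fibre transcripts the mean difference was -0.97 (log2, adjusted p = 0.03), and that at 6 months went from -1.97 (adjusted p = 0.0393) to -0.96 (adjusted p = 0.416). The part of slow fibres in these values was not tested.

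All 11 mitochondrial carriers were tested, and 5 were higher in EOM, 2 lower and 4 not called, with a median log2 difference of 0.15. The ADP/ATP carriers, which swap mitochondrial ATP for cytosolic ADP, went in opposite directions. Slc25a5, the isoform of many tissues, read 829.8, 788.5, 1203.9 and 858.1 units in EDL at 6 months, 728.7, 817.4, 693.5 and 680.9 at 18 and 902.4, 765.5, 826.2 and 799.7 at 30. In EOM, Slc25a5 read 2992, 2509, 3189 and 3041 units at 6 months, 2255, 2539, 2545 and 2556 at 18 and 2029, 2107, 2754 and 3130 at 30. It was 3.20-fold higher in EOM, with no overlap and the smallest adjusted p among solute carrier genes (log2 1.68, SE 0.09, adjusted p = 1.62e-13).

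Slc25a4, the isoform of heart and skeletal muscle, lay between 20155 and 36366 units on EDL arrays and between 17047 and 26824 on EOM arrays, which overlap. Its log2 difference was -0.33 (SE 0.10, adjusted p = 0.0129). The call did not survive quantile normalisation, which turned the sign (log2 0.01, adjusted p = 0.895), or the fit without the 3 arrays that stood apart by RNA quality or correlation (log2 -0.29, adjusted p = 0.0524). The phosphate carrier Slc25a3 was not called (log2 -0.09, adjusted p = 0.546), with 11640 to 19899 units in EDL and 10371 to 19339 in EOM.

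The citrate carrier Slc25a1, which exports citrate for lipid synthesis, read 154.4 to 405.0 units on EDL arrays with a median of 238, and 400.8 to 1820.5 on EOM arrays with a median of 801. EOM had 3.40-fold more of it (log2 1.77, SE 0.22, adjusted p = 5.57e-07), and only the dimmest EOM array fell inside the EDL range. The dicarboxylate carrier Slc25a10 was higher by 0.73 (SE 0.13, adjusted p = 8.04e-05), with 198.5 to 434.2 units in EDL and 331.2 to 624.2 in EOM, and a dimmer probe set gave 1.31. The S-adenosylmethionine carrier Slc25a26 was higher at all 3 ages (log2 0.52, adjusted p = 5.87e-05). Slc25a11, which trades malate for oxoglutarate in the malate-aspartate shuttle, was higher by 0.42 (adjusted p = 0.00481), but not with arrays centred on their medians (adjusted p = 0.0615). Slc25a30, a relative of the uncoupling proteins, was lower (log2 -0.59, SE 0.23, adjusted p = 0.0395), and leaving out any of 14 of the 24 arrays ended that call (adjusted p of 0.0515 to 0.0787), as did leaving out the 2 arrays with high slow-fibre transcripts (log2 -0.46, adjusted p = 0.143).

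**Figure D3:**
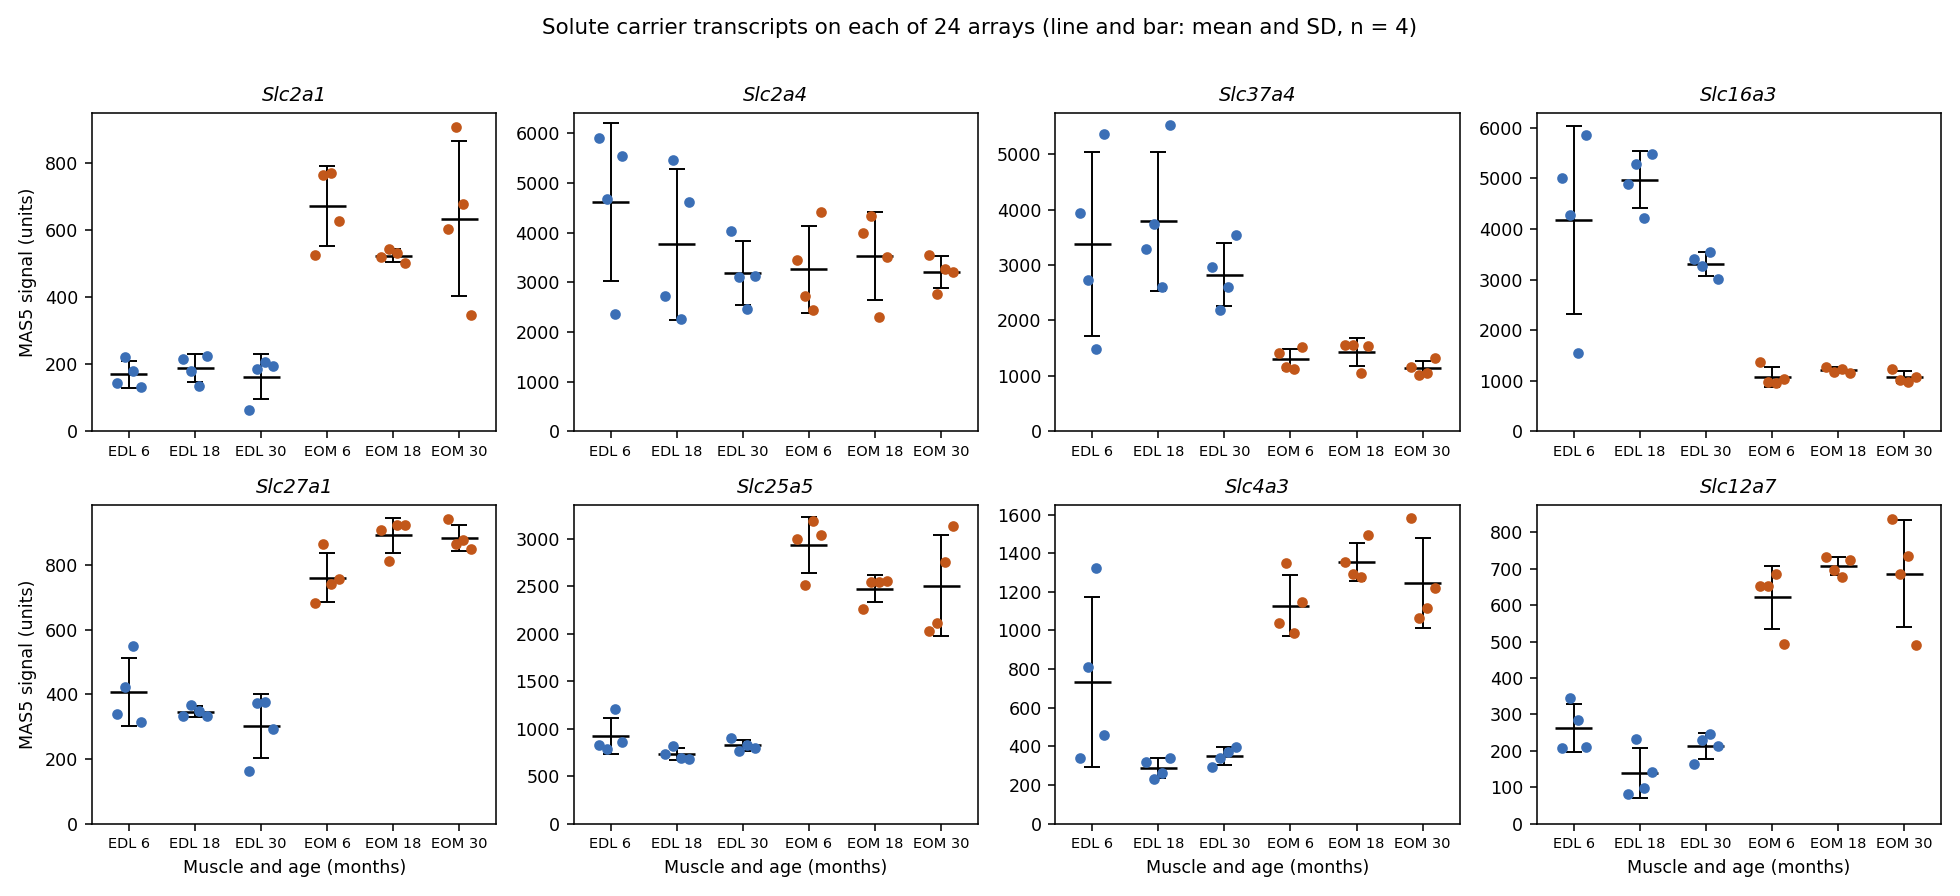
MAS5 signal of 8 solute carrier genes on each of the 24 arrays, by muscle and age in months; points are arrays, lines the group mean and bars the SD (n = 4). Slc2a1, Slc27a1, Slc25a5 and Slc12a7 are higher on every EOM array, Slc16a3 is lower on every EOM array, Slc2a4 overlaps, and replicate 3 of EDL at 6 months is the lowest EDL point of Slc37a4 (1478 units) and the highest of Slc4a3 (1322.8 units).

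Among carriers that regulate pH and bicarbonate, 8 of 10 were tested; 3 were higher in EOM, 1 lower and 4 not called. Slc4a3, the chloride-bicarbonate exchanger AE3 of heart and brain, read 339.0, 812.2, 1322.8 and 456.1 units in EDL at 6 months, 319.1, 229.3, 261.2 and 337.6 at 18 and 291.0, 341.7, 371.4 and 397.4 at 30. EOM arrays gave 1038, 1347, 986 and 1145 units of Slc4a3 at 6 months, 1353, 1295, 1275 and 1496 at 18 and 1583, 1064, 1115 and 1221 at 30. The groups overlapped at 6 months only, through replicate 3 of EDL, and the mean difference was 3.09-fold (log2 1.63, SE 0.16, adjusted p = 8.32e-09). At 6 months alone it was 0.81 (adjusted p = 0.04), and 1.51 (adjusted p = 2.33e-05) without the 2 arrays with high slow-fibre transcripts. The part of slow fibres in that value was not tested.

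Slc4a7, an electroneutral sodium-bicarbonate cotransporter, had 1.87-fold more signal in EOM (log2 0.90, SE 0.12, adjusted p = 2.16e-06). It read 225.7 to 667.0 units on EDL arrays, with a median of 382, and 588.5 to 984.2 on EOM arrays, with a median of 731; the highest EDL array was again replicate 3 at 6 months. Slc4a4, the electrogenic member of that group, was lower in EOM (log2 -1.34, SE 0.30, adjusted p = 7.62e-04). It read 13.1 to 202.1 units in EDL, with 3 of 12 arrays at the floor, and 6.4 to 57.0 in EOM, with 9 of 12 at the floor. Slc4a4 was above background in 1 group only, EDL at 18 months, and was tested only through that group. Of the single ages it was called at 18 months alone (limma adjusted p = 0.00823), so its fold describes a signal near the detection limit. Slc9a2, a sodium-proton exchanger of epithelia, was higher by 0.76 (adjusted p = 0.0479), and that call ended without any of 16 of the 24 arrays (adjusted p up to 0.0962) and without the 2 with high slow-fibre transcripts (adjusted p = 0.0537). Slc4a1, the anion exchanger of erythrocytes, was not called (log2 -0.09, adjusted p = 0.711).

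Cation-chloride and phosphate cotransporters numbered 8, of which 6 were tested, 3 higher in EOM, 1 lower and 2 not called. Slc12a7, the potassium-chloride cotransporter KCC4, read 207.4, 345.2, 283.8 and 209.4 units in EDL at 6 months, 79.8, 232.5, 98.1 and 142.3 at 18 and 162.9, 230.5, 246.4 and 213.2 at 30. EOM gave 652.9, 652.2, 685.9 and 494.5 units at 6 months, 732.2, 697.7, 678.7 and 724.1 at 18 and 837.4, 685.2, 735.7 and 489.6 at 30. It was 3.51-fold higher in EOM without overlap (log2 1.81, SE 0.15, adjusted p = 6.79e-10). Slc12a4 (KCC1), which serves cell volume, was higher by 0.46 (adjusted p = 0.0063), though not with arrays centred on their medians (adjusted p = 0.0524). The sodium-potassium-chloride cotransporter Slc12a2 (NKCC1) went the other way (log2 -0.53, SE 0.14, adjusted p = 0.00303).

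Slc20a2, a sodium-phosphate cotransporter of most tissues, read 140.7, 46.2, 397.0 and 352.4 units in EDL at 6 months, 295.6, 295.2, 470.1 and 576.6 at 18 and 225.8, 318.3, 446.4 and 463.1 at 30. EOM gave 644.7, 823.3, 832.1 and 666.9 units at 6 months, 651.7, 745.9, 796.8 and 1256.7 at 18 and 838.6, 849.9, 677.0 and 1216.9 at 30. All EOM arrays lay above all EDL arrays, by 2.83-fold (log2 1.50, SE 0.26, adjusted p = 3.7e-05). The 2 dimmest EDL values were those of replicates 1 and 2 at 6 months, which had the high beta-actin ratios, and without the 3 arrays that stood apart by RNA quality or correlation the log2 difference was 1.06 (adjusted p = 1.1e-05). The part of RNA quality in that value was not tested.

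Of 13 amino acid and peptide carriers on the array, 9 were tested: none was higher, 2 were lower and 7 were not called. Among all probe sets, 22.3% were higher and 20% lower. Slc7a1 (CAT1) read 66.7 to 123.1 units on EDL arrays and 8.4 to 59.4 on EOM arrays, with no overlap, and was 2.02-fold lower in EOM (log2 -1.01, SE 0.17, adjusted p = 2.3e-05). Since these EOM values sit at or under array background, the fold describes a signal near the detection limit. Dimmer probe sets of Slc7a1, not above background and not tested, did not share this direction. Their means were 15.4 and 10.2 units in EDL and 43.5 and 13.6 in EOM. Slc15a4, a lysosomal carrier of peptides and histidine, was at -0.41 (adjusted p = 0.012). The heavy chain Slc3a2 and its partner Slc7a5, together the leucine exchanger LAT1, were at 0.22 (adjusted p = 0.153) and 0.22 (adjusted p = 0.354). The glial glutamate transporter Slc1a3 was at 0.16 (adjusted p = 0.569).

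The Slc6 and vesicular families held 20 genes, 14 of them tested, with 2 higher in EOM, 1 lower and 11 not called. Slc6a8, the creatine transporter that supplies muscle with creatine, read 1621 to 2585 units on EDL arrays, with a median of 1985.5, and 1081 to 1814 on EOM arrays, with a median of 1374.5. It was lower in EOM by 1.41-fold (log2 -0.50, SE 0.10, adjusted p = 3.08e-04), although the ranges overlap. Slc6a15, a carrier of branched-chain amino acids and proline, was between 3.7 and 40.4 units in EDL, with 10 of 12 arrays at the floor, and between 12.3 and 150.0 in EOM (log2 1.32, SE 0.19, adjusted p = 4.38e-06). Slc6a15 was above background only in EOM at 6 and 30 months and was tested only through those groups. Its fold therefore describes a signal near the detection limit. Slc6a20a, a proline carrier, was higher by 0.83 (SE 0.24, adjusted p = 0.00607). The taurine transporter Slc6a6 (log2 0.31, adjusted p = 0.38) and Slc18a3 (log2 -0.17, adjusted p = 0.554), which loads acetylcholine into vesicles of motor nerve endings, were not called.

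Of 4 sodium-calcium exchangers, 3 were tested and 1 was called. Slc8a3, the isoform of skeletal muscle and brain, was lower in EOM (log2 -0.61, SE 0.18, adjusted p = 0.00788), with 155.6 to 482.1 units in EDL and 122.2 to 360.7 in EOM. Slc8a1, the heart isoform, was at -0.26 (adjusted p = 0.396), and Slc8a2, the brain isoform, at 0.12 (adjusted p = 0.842).

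Organic ion carriers gave 2 higher, 1 lower and 2 not called among 5 tested of 8. Slc22a3 read 18.1 to 119.0 units on EDL arrays and 103.9 to 190.1 on EOM arrays, a 2.62-fold rise in EOM (log2 1.39, SE 0.26, adjusted p = 9.22e-05). Slc22a18 was higher by 0.75 (adjusted p = 1.74e-04). Slc22a13, a urate and nicotinate carrier, was at -0.84 (adjusted p = 0.0291); its call ended (adjusted p up to 0.06) without replicate 3 of EDL at 6, 18 or 30 months, replicate 2 of EDL at 30 months, replicate 2 of EOM at 6 or 18 months or replicate 1 of EOM at 30 months, as it did without the 2 arrays with high slow-fibre transcripts (adjusted p = 0.0579). Slc22a5, the carnitine transporter, was not called (log2 0.26, adjusted p = 0.145).

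Nucleoside carriers also divided: among 5 tested of 6, Slc28a2 was higher (log2 0.61, adjusted p = 0.00177), Slc29a2 (log2 -0.65, adjusted p = 0.00216) and Slc28a1 (log2 -0.33, adjusted p = 0.0232) were lower, and 2 were not called. Slc28a1 missed the threshold without the 2 arrays with high slow-fibre transcripts (adjusted p = 0.0507). Of 3 vitamin carriers, 2 were tested and Slc23a3, a relative of the vitamin C transporters, was lower (log2 -0.41, adjusted p = 0.0319), a call lost without replicate 1 of EDL at 6, 18 or 30 months or replicate 3 of EOM at 6 or 18 months (adjusted p up to 0.0661). None of 4 tested metal carriers of 7 on the array was called, among them the iron importer Slc11a2 (log2 0.23, adjusted p = 0.16), and neither of 2 tested urea transporters.

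Genes that work with these carriers were compared in the same fit, in which 22.3% of all probe sets were higher in EOM and 20% lower. Of 8 sodium and proton pump genes on the array, 6 were tested, 3 higher and 1 lower in EOM, with a median of 0.26. The sodium pump beta subunits diverged, Atp1b1 at 1.34 (adjusted p = 4.15e-09) and Atp1b2 at -1.92 (adjusted p = 2.55e-07). Among 7 tested chaperones and binding proteins, Emb (log2 -0.97, adjusted p = 3.45e-04) and Bsg (log2 -0.28, adjusted p = 0.0481), which carry the lactate transporters to the membrane, and Stx4 (log2 -0.30) were lower, and Vamp2 (log2 0.34) was higher. Among 11 tested genes of insulin-responsive glucose uptake none was higher and 5 were lower: Prkaa2 (-1.65), Rab10 (-1.10), Irs1 (adjusted p = 0.00333), Akt2 (-0.91) and Mef2d (-0.55 on the log2 scale), with a median of -0.40 beside -0.07 over all probe sets.

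Markers of several other cell types also differed between the muscles, where 22.3% of all probe sets were higher in EOM and 20% lower. Of 9 tested Schwann cell and nerve genes, 8 were higher in EOM and none lower, with a summed signal of 6091 to 8951 units there and 1626 to 2918 in EDL. Erythrocyte genes were higher in 3 of 4 (10628 to 34261 units against 3328 to 6532), adipocyte genes in 3 of 6 (4452 to 6174 against 2868 to 5016, with Plin1 and Cebpa not above background) and endothelial genes in 1 of 5 (1575 to 2038 against 1026 to 1495). Orbital gland and epithelial genes were higher in 6 of 8, with 3597 to 34467 units in EOM; in EDL they summed to 345.8 to 798.8 units at 6 months, 323.5 to 749.8 at 18 and 2816 to 7359 at 30. Fibroblast genes were higher in 4 of 5 (14386 to 41402 against 8693 to 28810), smooth muscle genes higher in 4 of 5 and lower in 1, macrophage genes higher in 2 of 3, and no mast cell gene of 3 and no retinal gene of 1 tested was called. The part of these cell types in the differences of Slc2a1, Slc27a1, Slc22a3 and the other solute carrier genes was not tested, and in pooled tissue fewer cells of a type and less RNA per cell cannot be told apart.

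At single ages the muscles differed in fewer genes. At 6 months 16 were called, 12 higher and 4 lower in EOM (17.9% of all probe sets were called, 11.6% higher and 6.29% lower). At 18 months 17 were called, 12 higher and 5 lower (23.4%, 14.1% and 9.25%). At 30 months 19 were called, 13 higher and 6 lower (19.2%, 11.4% and 7.79%). With the replicate number as a block, 29 were called at 6 months, 18 higher and 11 lower, among them all 16. Without the 2 arrays with high slow-fibre transcripts 13 were called at 6 months: 12 of the 16, and Slc16a7 (log2 1.83, adjusted p = 0.0239). Slc16a7 entered the test only through EOM at 6 months, the higher side of this comparison. The 4 of the 16 that missed the threshold without these arrays were Slc25a10 (adjusted p = 0.0835), Slc25a26 (0.0917), Slc9a2 (0.0896) and Slc27a2. Called at each age in the fit of all arrays were Slc12a7, Slc25a1, Slc25a26, Slc25a5, Slc27a1, Slc2a1, Slc4a3 and Slc4a7, all higher, and Slc16a3 and Slc37a4, both lower. A further 11 of the 38 were called in the mean over ages and at no single age. Slc6a9, a glycine transporter, was called at 30 months only (log2 -1.26, SE 0.36, adjusted p = 0.0156).

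The size of the difference in the 10 shared genes varied between ages without a called interaction. Slc2a1 was higher by 2.00, 1.50 and 2.01 on the log2 scale at 6, 18 and 30 months. Slc25a5 was higher by 1.69, 1.76 and 1.58, and Slc25a1 by 1.77, 1.74 and 1.79. Slc12a7 had 1.27, 2.48 and 1.68 and Slc4a3 had 0.81, 2.25 and 1.82, both with the smallest value at 6 months. Slc27a1 had 0.93, 1.37 and 1.62. Among the lower genes, Slc16a3 had -1.81, -2.03 and -1.63 and Slc37a4 -1.23, -1.37 and -1.30.

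No solute carrier gene was called with age in either muscle. In EDL, limma called 0 of 87 between 30 and 6 months (1.86% of all probe sets; 7 at an unadjusted p under 0.05), 0 between 18 and 6 months (0.279%; 6 unadjusted) and 0 between 30 and 18 months (1.55%; 9 unadjusted). In EOM it called 0 between 30 and 6 months (0.0348%; 1 unadjusted), 0 between 18 and 6 months (0.174%; 6 unadjusted) and 0 between 30 and 18 months (0.0174%; 2 unadjusted). The interactions, the change in EOM minus that in EDL, called 0 for 30 against 6 months (0.192%; 5 unadjusted) and 0 for 18 against 6 months (0%; 5 unadjusted). A miss of the threshold with 4 arrays a group does not show that levels stayed the same.

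Summed signals of some marker lists did not overlap between EDL ages. The gland and epithelial sum was higher on all 4 EDL arrays at 30 months than on any at 6 or 18 months. Most of it was Klk1, a glandular kallikrein, with 2220 to 6755 units at 30 months against at most 407.2 at 6 and 335.7 at 18, and the other 7 genes summed to 521.4 to 822.6 against 272.8 to 449.1 and 294.5 to 450.0. Spt1, a salivary protein gene of the same list, lay between 11.5 and 43.2 units in EDL. Extraocular fibre genes summed to 3201 to 5205 units in EDL at 30 months and 1421 to 2473 at 18, while the range at 6 months, 1872 to 6464, overlapped both. On EDL arrays Myh3 reached 3653 units and Actc1 3710, but Myh13 only 175.3 and Myh8 only 69.9. Fibroblast genes summed to 18046 to 28810 units in EDL at 6 months and 8693 to 15741 at 18. Whether the sources of these marker signals have a part in the EDL age values that follow was not tested.

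**Figure D4:**
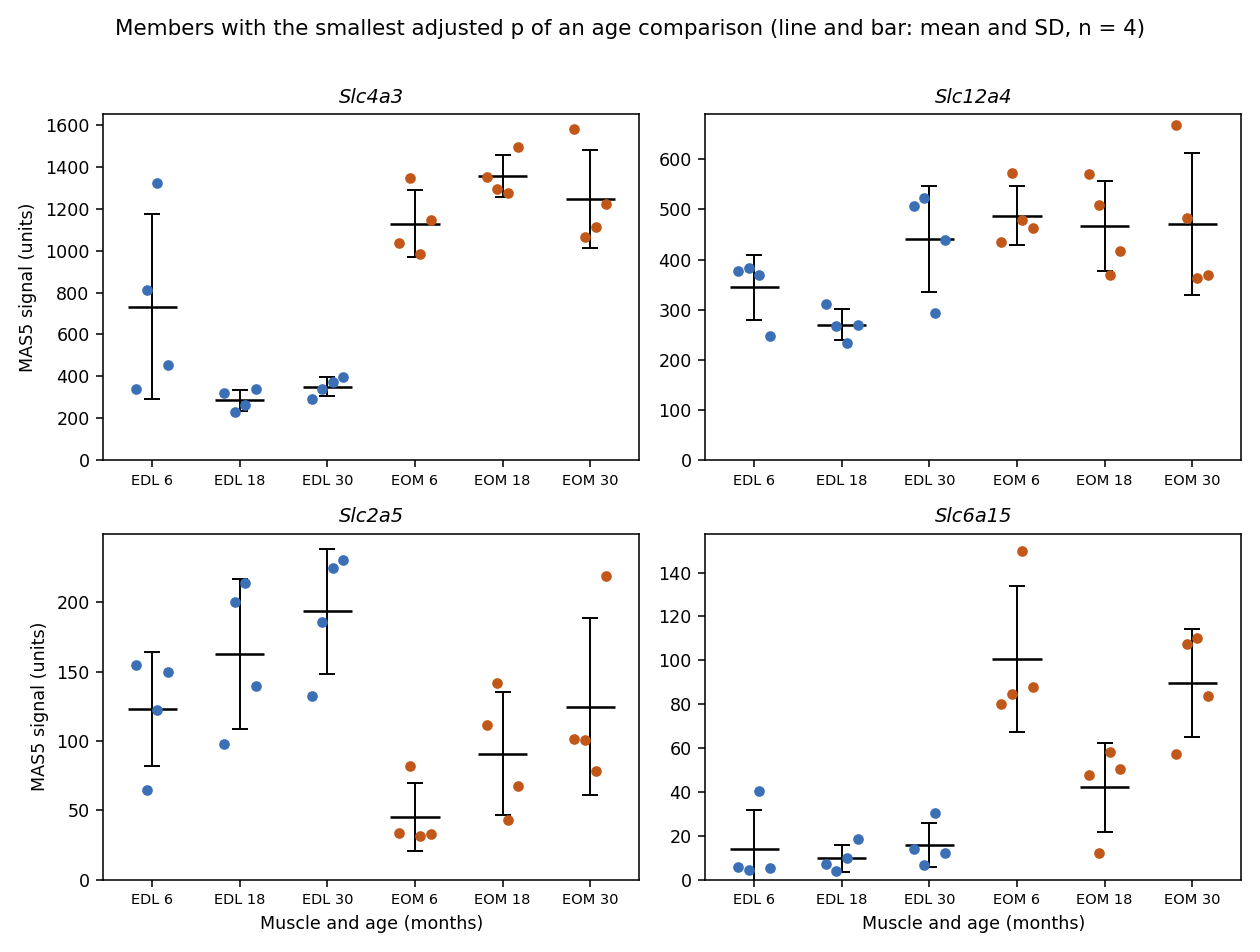
MAS5 signal by muscle and age in months for the solute carrier genes with the smallest adjusted p in EDL at 18 against 6 months (Slc4a3), EDL at 30 against 18 months (Slc12a4), EOM at 30 against 6 months (Slc2a5) and EOM at 18 against 6 months (Slc6a15); points are arrays, lines means and bars SD (n = 4), with bars ending at 0. None of the 4 differences was called, and the high EDL values of Slc4a3 at 6 months are replicates 2 and 3 (812.2 and 1322.8 units).

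The smallest adjusted p was that of Slc4a3 in EDL, at 18 against 6 months (log2 -1.17, SE 0.27, adjusted p = 0.0706). It passed without replicate 1 (adjusted p = 0.0119) or replicate 4 (0.0175) of EDL at 6 months, with quantile normalisation (0.0364), with centred arrays (0.0393) and without the 3 arrays that stood apart by RNA quality or correlation (0.0416). Replicates 2 and 3 of EDL at 6 months held both the high Slc4a3 values and the high slow-fibre transcripts, and without these 2 arrays the difference was -0.47 (SE 0.21, adjusted p = 0.948). Tnni1, the slow troponin, read 11925 and 11801 units on them and 1098 to 4518 on the other 22 arrays.

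For Slc16a3 the same arrays moved the value in the other direction. In the fit of all arrays its EDL level at 30 months did not pass against 6 months (log2 -0.18, SE 0.25, adjusted p = 0.933) or 18 months (log2 -0.58, SE 0.25, adjusted p = 0.45), although all 4 EDL arrays at 30 months lay below all 4 at 18. Without replicates 2 and 3 of EDL at 6 months, the lower of which read 1557 units, 30 months was below 6 months (log2 -0.71, SE 0.17, adjusted p = 0.0276) and 18 months (log2 -0.58, SE 0.14, adjusted p = 0.0227). Leaving out replicate 3 alone gave -0.60 (adjusted p = 0.0345) and -0.58 (adjusted p = 0.028). The part of slow fibres in these values was not tested, and in EOM the transcript was at 0.001 between 30 and 6 months (log2, adjusted p = 1).

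Other age differences of single genes passed in some fits only. Slc12a7 in EDL was at -1.01 between 18 and 6 months (log2, SE 0.26, adjusted p = 0.118), and without replicate 2 of EDL at 18 months it passed (log2 -1.30, adjusted p = 0.0177), as did 30 against 18 months (log2 1.02, adjusted p = 0.0276). Slc12a4 in EDL was at 0.68 between 30 and 18 months (adjusted p = 0.222) and passed with the replicate block (adjusted p = 0.046). Slc37a1 in EDL passed between 30 and 18 months without replicate 2 at 30 months (log2 -1.74, adjusted p = 0.0455). In EOM, Slc2a5 was at 1.48 between 30 and 6 months (adjusted p = 0.602), its 4 arrays reading 33.8, 81.8, 31.4 and 32.9 units at 6 months and 101.1, 100.7, 78.0 and 219.0 at 30. Only 1 of the 4 EOM arrays at 6 months was above background for Slc2a5. Slc6a15 in EOM was at -1.15 between 18 and 6 months (log2, adjusted p = 0.301) and passed with quantile normalisation (adjusted p = 0.0449) and array weights (adjusted p = 0.0369). No EOM array at 18 months was above background for Slc6a15, which was tested only through EOM at 6 and 30 months.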

How the data were processed

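Per the design text of the series, the authors used Affymetrix Rat Genome U34 chips and computed values with Affymetrix Microarray Suite 5.0. What they deposited is a table of linear intensity values, named MAS5 in the submitters' processing notes and taken as already scaled between arrays. Dyes named in the labels (Cy3, Cy5) do not match the biotin stain of the design text; with 1 value per array, arrays were read as 1-colour.

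Of 8799 rows, 59 controls were removed; 7006 of the other 8740 had 1 gene symbol in the platform annotation, and only these were named. Values under an array's 25th percentile (21.4 to 34.5 units) were set to it and log2 was taken, so folds of dim transcripts are understated. A probe set was tested if above its array's 40th percentile on at least 3 of 4 arrays of at least 1 group, which left 5741. Group means of all 6 groups were estimated together with limma 3.58.1 (R 4.3.3; eBayes with an intensity trend, 18 residual degrees of freedom). Two-sided p-values were Benjamini-Hochberg adjusted across the 5741 tested probe sets, and called under 0.05. The fit was tested on simulated data.

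The solute carrier genes, the gene lists and the families by solute were chosen with earlier results of these data known. Named genes were those called between the muscles, those called with age, the 10 brightest and a list of genes with a known role in muscle; the slow-fibre genes were chosen after values were seen. Replicate numbers are in the labels. Same-numbered arrays correlated at -0.008 to 0.527 (median 0.284, 60 pairs) in their deviations from group means, and arrays of other numbers at a median of -0.117 (180 pairs). Across muscles and ages, 53 of the 60 same-numbered pairs exceeded 0.1. Between EDL and EOM of 1 age, every same-numbered pair exceeded 0.1 at 6 months only, so the blocked count stands beside that comparison. Every pair also exceeded 0.1 in each EOM age comparison and in EDL at 6 against 30 months. Blocked counts for the mean over ages and with age are given with the other alternatives. In all, 37 alternatives were fitted: 24 that leave out 1 array and 13 others on normalisation, floor, filter, model and arrays, 2 of them chosen after seeing the data. Promoters came from RefSeq for assembly GRCr8.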

Additional observations from a re-analysis of the deposited data

Results flagged for a closer look

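Within the groups of 4 arrays of 16 solute carrier genes, 8 of 96 groups held an array whose gap to the nearest of the others, as a share of the group's range, exceeded Dixon's 95% critical value; chance gives about 1 in 20. Slc2a1 was low on replicate 1 of EDL at 30 months, at 64.5 units against 185.2 to 207.9 on the others, and this array also had the lowest correlation to its group. Slc25a5 was high on replicate 3 of EDL at 6 months, at 1203.9 units against 788.5 to 858.1, the array that also had high slow-fibre transcripts. In EOM at 18 months, Slc25a5 was low on replicate 1 (2254.9 against 2539.0 to 2555.5), Slc37a4 on replicate 3 (1060.9 against 1544.1 to 1561.8) and Slc27a1 on replicate 2 (811.6 against 908.5 to 924.3). In EDL at 18 months, Slc25a4 was high on replicate 4 (36366.1 against 27754.7 to 28393.4) and Slc7a1 on replicate 3 (123.1 against 88.5 to 93.3). Slc7a1 was also high on replicate 4 of EDL at 30 months (122.3 against 86.3 to 89.0). The flagged EDL value of Slc25a5 stayed below the EOM range. The flagged EDL values of Slc2a1 and Slc7a1 lay on the side away from the EOM range, so they could not enter it.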

How the results depend on the processing

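Of the 38 solute carrier genes called between the muscles, 20 were called in every one of the 37 alternatives that could test them, and 1 changed sign: Slc25a4, at 0.01 after quantile normalisation. Leaving out 1 array gave 35 to 41 called as a mean over ages (19 to 21 higher, 16 to 21 lower), 12 to 19 at 6 months, 15 to 18 at 18 and 15 to 20 at 30. Among the other alternatives, the count for the mean over ages ran from 26 to 45: 45 with the replicate block, 43 with quantile normalisation, 42 with array weights, 42 with centred arrays, 38 or 39 under another floor, offset, no filter or the compared groups alone, 37 without the 3 arrays that stood apart, 35 without the 2 arrays with high slow-fibre transcripts, 34 with a filter at the array median, 28 with replicates 3 and 4 alone (11 lower) and 26 with replicates 1 and 2 alone (9 lower). Replicates 1 and 2 alone, and 3 and 4 alone, gave 6 and 8 calls at 6 months, 10 and 11 at 18 and 9 and 8 at 30, with fewer arrays. The replicate block gave 29 calls at 6 months and 1 in EDL between 30 and 18 months, and moved no other count by over 1.5 times.

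Age counts of 0 in EDL became 1 between 18 and 6 months with quantile normalisation, centred arrays or without the 3 arrays (1 each), and 1 between 30 and 6 months with replicates 1 and 2 alone (Slc20a2, log2 1.73, adjusted p = 0.0482), without the 3 arrays (Slc27a2, log2 -2.64, adjusted p = 0.0244) or without the 2 arrays (1, Slc16a3, also 1 between 30 and 18 months). Leaving out 1 array gave 0 to 1 in each EDL age comparison and 0 in each of EOM. In EOM, 18 against 6 months gave 1 with quantile normalisation and 2 with array weights (Slc6a15, and Slc2a5 at log2 1.41, adjusted p = 0.0278). Where no value shows it, the cause was not tested. Signal near array background limits Slc7a1, Slc6a15, Slc4a4, Slc27a2, Slc22a3, Slc16a7 and Slc2a5. All of these but Slc2a5 were tested only through groups of the muscle in which they read higher. Slc27a2 was tested only through EDL at 6 months, the higher group of its age difference above.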

Other observations

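For some solute carrier genes a dimmer probe set was called where the brightest was not. The iron exporter Slc40a1 was not above background by its brightest probe set, and its other probe set was higher in EOM (log2 1.24, SE 0.21, adjusted p = 3.44e-05 by limma), with a mean over the 12 EOM arrays of 78.9 units. The anion exchanger Slc4a2 was level by its brightest probe set (log2 0.002, adjusted p = 0.995), while a dimmer one was higher in EOM (log2 1.57, SE 0.32, adjusted p = 3.08e-04; means of 41.9 and 159.6 units). Besides Slc7a1, 6 genes were above background in EDL groups alone (Slc12a3, Slc13a2, Slc18a2, Slc27a2, Slc32a1 and Slc4a4), and besides Slc22a3, 4 in EOM groups alone (Slc15a2, Slc16a7, Slc6a15 and Slc6a5).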
